A study of Mus musculus with 12 samples.

Results

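The genes described here are 43 genes of the cell division cycle, from the helicase that opens DNA for copying to the kinases and checkpoint proteins of mitosis. They were listed by name, and each was read from the probe sets whose annotation names that gene alone, with the probe set of the highest mean intensity over 12 arrays standing for the gene. Such a probe set was found for 40 of the 43, out of 8251 genes that the array names in this way. Ccnb1 and Bub1b had none, and Tyms was named only on 2 probe sets shared with another gene name. Of the 40, 25 were bright enough to test and 15 were dim. The data are perigonadal fat RNA of female mice, 6 months old and freely fed, with 1 mouse on each of 12 arrays and 3 mice in each of 4 groups. The overexpressors carried a Glut4 transgene driven by the aP2 promoter on the FVB strain, and their controls were FVB littermates. The knockouts, labelled adipose-Glut4-/-, had a mixed C57B6, FVB and SV129 strain, and their controls carried aP2-Cre on the same mix. The aP2 gene encodes the fatty acid binding protein Fabp4, which is abundant in adipocytes and also made in macrophages, so its promoter need not act in fat cells alone. Each mutant was read only against its own control.

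Mature adipocytes do not divide, and the dividing cells of adipose tissue are mostly precursor, immune and vascular cells. In a cycling cell, D-type cyclins with Cdk4 inactivate the retinoblastoma protein Rb1, which frees E2F factors to switch on genes of replication and nucleotide supply. Cyclin E and cyclin A with Cdk2 then drive DNA synthesis, and cyclin B with Cdk1 drives mitosis. Cdk inhibitors of the Cip/Kip and Ink4 families hold these kinases in check, and several of the inhibitors, as well as Rb1, are also expressed in cells that have left the cycle.

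The deposited values are intensities on a linear scale, with a smallest value of 21.9 in the overexpressor line and 22.27 in the knockout line, so no level was compared between lines. Array medians ran from 185.8 to 219.4, the highest being overexpressor control 1. The array count, 3 in a group, limits the precision. Adipocyte markers summed to between 20158 and 26338 over 8 genes on the arrays and none was at the floor, whereas the T and NK cell markers Cd3d, Cd3g, Cd8a and Klrd1 were at the floor on 1 to 3 arrays each. Overexpressor control 3, knockout 1, knockout control 1 and knockout control 2 correlated better with the opposite group of their line than with their own. The target gene, Slc2a4, read 625, 1110 and 1042 in overexpressors against 639, 583 and 1212 in controls, and 378, 365 and 363 in knockouts against 416, 514 and 614. Neither Slc2a4 difference passed the test, and the labels do not say whether the probes read the transgene or the deleted part.

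The comparisons ask how gain and loss of Glut4 in fat bear on these genes. No cell cycle gene passed the test in either line. The lowest adjusted p belonged to Cdkn2c, a Cdk inhibitor of the Ink4 family, in the overexpressors, at 801 ± 147 against 1384 ± 135 (mean ± SD of intensity, n = 3; limma adjusted p = 0.311 over 7454 probe sets). In the knockouts the 3 genes with an unadjusted limma p under 0.05 were the cyclin gene Ccnd2, Rb1 and Cdkn2c, each higher. Log2 changes here are on the scale of log2(intensity + 36.92), which understates the change of dim genes.

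Among the 25 tested genes, 12 had a positive and 13 a negative log2 change in the overexpressors, with a median of -0.01. Over all 7454 probe sets 29.7% lay above and 70.3% below 0, with a median of -0.07. By limma 0 of the 25 were called, against 0.0805% of all probe sets (6 called), and 2 had an unadjusted p under 0.05, both lower, against 4.76% of all in either direction, 1.23% higher and 3.53% lower. The groups did not overlap for 2 of the 25, both lower, against 8.80% of all probe sets in either direction, 2.29% higher and 6.51% lower. In the knockouts 14 genes lay above and 11 below 0, with a median of 0.07, while over all probe sets 63.1% lay above and 36.9% below 0 with a median of 0.04. There 0 were called by limma, against 0.121% of all (9 called), and 3 had an unadjusted p under 0.05, all higher, against 3.98% of all in either direction, 3.46% higher and 0.523% lower. The groups did not overlap for 2 of the 25, both higher, against 7.59% of all probe sets in either direction, 5.66% higher and 1.93% lower. The counts of non-overlapping genes lie near their background shares, the counts by unadjusted p above theirs, and each count is of 2 or 3 genes. The difference between the 2 effects was called for 0 of the 25, against 0.161% of all probe sets, and 1 gene, Cdkn2c, had an unadjusted p under 0.05 with a negative difference, against 4.96% of all in either direction, 0.644% positive and 4.32% negative.

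**Figure D1:**
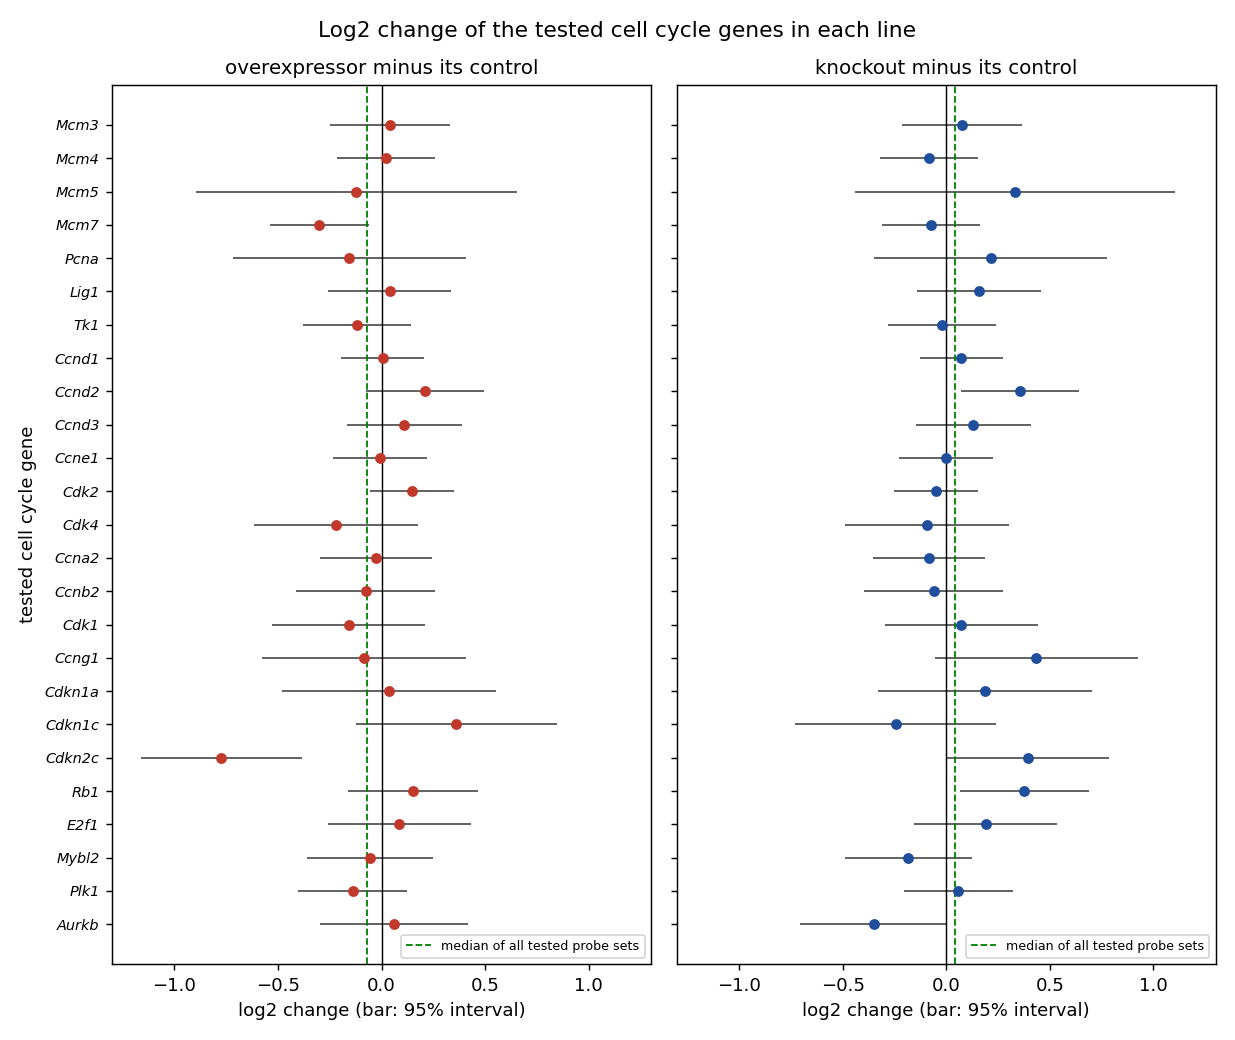
Log2 change of the 25 tested cell cycle genes in the overexpressors (left) and knockouts (right), each against its own control; points are limma estimates, bars 95% intervals, and the dashed line is the median of all 7454 tested probe sets (-0.07 and 0.04). Cdkn2c lies farthest to the left among the overexpressor values, at -0.77, and Ccng1 farthest to the right among the knockout values, at 0.44.

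The Mcm genes encode the subunits of the helicase that unwinds DNA ahead of the fork. Mcm7 read 117, 120 and 156 in overexpressors and 176, 180 and 152 in their controls, so that overexpressor 3 reached above control 3 and the groups overlapped. Its log2 change was -0.30 (SE 0.11, 95% interval -0.54 to -0.06, unadjusted p = 0.0174, limma adjusted p = 0.888). In the knockout line Mcm7 read 147, 153 and 141 against 167, 151 and 150, a log2 change of -0.07. Mcm7 passed the filter on dim probe sets narrowly. By mean intensity 38.9% of probe sets were dimmer, while the filter left out 40% by mean log2 value. Mcm3 and Mcm4, of the same helicase, had log2 changes of 0.04 and 0.02 in the overexpressors and 0.08 and -0.08 in the knockouts. A dim Mcm3 probe set gave differences of -0.06 in the overexpressors and 0.14 in the knockouts.

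Mcm5, also of the helicase, had the highest intensity of its role group and was read by a probe set whose name carries the letter r, a mark on this array type for probes chosen under relaxed rules. It read 1069, 988 and 1006 in overexpressors against 959, 1173 and 1225 in controls. In the knockout line it read 727, 719 and 385 against 734, 205 and 618, with knockout 3 and control 2 far below the others. Its log2 changes were -0.12 and 0.33, the first of them at 0.0020 with quantile normalization. The other Mcm5 probe set, without such a letter, had log2 changes of -0.09 and -0.13, so the probe sets differ in sign in the knockouts.

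Pcna, the clamp that holds DNA polymerase on its template, read 340, 504 and 596 in overexpressors against 673, 449 and 480, and 406, 533 and 556 in knockouts against 534, 519 and 265. The lowest readings were those of overexpressor 1 and knockout control 3, the arrays with the lowest medians of their lines, 188.1 and 185.8. The log2 changes of -0.16 and 0.21 did not pass. Without overexpressor 1 the first was 0.06, and without knockout control 3 the second was -0.09; the part of array brightness in these values was not tested. Lig1, the ligase that seals nicks on the lagging strand, had log2 changes of 0.04 and 0.16, the latter at 0.0052 without knockout control 2.

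The remaining replication genes were dim. These were Mcm2 and Mcm6 of the helicase, its loader Cdc6, the primase gene Prim1, the polymerase alpha gene Pola1 and the topoisomerase gene Top2a. Mcm6 read under 36.92, the 10th percentile of the table, on 4 of 12 arrays and Cdc6 on 1. Top2a did so on 7 arrays, with 3 arrays within 2% of the floor. Mcm2, Prim1 and Pola1 stayed within 73 to 116, 83.6 to 125 and 65.8 to 88.3 on all 12 arrays.

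Of the nucleotide supply genes, Tk1, the thymidine kinase that salvages thymidine in S phase, was the tested one. It read 577, 557 and 623 in overexpressors and 644, 631 and 637 in controls, so that all 3 overexpressors lay below all 3 controls. The gap was small, with a log2 change of -0.12 (95% interval -0.38 to 0.14, limma adjusted p = 0.928). In the knockout line Tk1 read 299, 289 and 316 against 365, 249 and 315, a log2 change of -0.02. A dim Tk1 probe set gave differences of 0.04 in the overexpressors and -0.03 in the knockouts, with overlapping groups in both lines. The Tk1 probe sets thus differ in sign in the overexpressors. Rrm1 and Rrm2, the subunits of ribonucleotide reductase, were dim, with ranges of 94.2 to 162 and 50.7 to 86.8. The brightest Rrm1 probe set was highest of its line on overexpressor 1 and gave differences of -0.02 in both lines. Another dim Rrm1 probe set, of nearly equal mean (123.9 against 124), gave -0.18 in the overexpressors and -0.09 in the knockouts. There overexpressor control 1 was highest of its line, at 194 against 145 for the next mouse.

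Among the cyclins and kinases, the D-type cyclin gene Ccnd2 stood out in the knockouts. It read 449, 543 and 491 in knockouts and 344, 400 and 390 in controls, and the groups did not overlap. The log2 change was 0.36 (SE 0.13, 95% interval 0.07 to 0.64, unadjusted p = 0.0182, limma adjusted p = 1). In the overexpressors Ccnd2 read 215, 241 and 235 against 183, 161 and 245, with control 3 above all overexpressors, and a log2 change of 0.21. The other D-type cyclins had smaller log2 changes in the knockouts, with Ccnd1 at 0.0050 and 0.07 and Ccnd3 at 0.11 and 0.13.

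Cdk4, the partner of the D-type cyclins, had the highest intensity of this role group. It read 711, 910 and 864 in overexpressors against 1217, 930 and 793, and 768, 804 and 909 in knockouts against 1003, 1004 and 680. Overexpressor 1 lay below all its controls and the other mutants lay within the range of theirs, and the log2 changes were -0.22 and -0.09. Without overexpressor control 1 the first was -0.06, and without overexpressor control 3 it was -0.36. The second ran from -0.27 without knockout control 3 to -0.0022 without knockout control 2. A less bright Cdk4 probe set gave -0.35 (unadjusted p = 0.0878) and 0.07. Cdk2 had log2 changes of 0.15 and -0.05. A dim Cdk2 probe set gave differences of -0.04 and -0.03, opposite in sign in the overexpressors. Ccne1, the cyclin of the G1 to S transition, had log2 changes of -0.0068 and -0.00058, and its sign in the overexpressors turned with array medians subtracted (0.05) or quantile normalization (0.09). Its means in the knockout line, 110.5 and 111.1, lay in the range of dim genes, and it passed the filter through the overexpressor line.

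Among the cyclins and the kinase of later phases, Ccna2 was at -0.03 and -0.08, Ccnb2 at -0.08 and -0.06 and Cdk1 at -0.16 and 0.07. In the overexpressors Ccna2 turned positive with array medians subtracted (0.03) and with quantile normalization (0.05), and Ccnb2 with quantile normalization (0.01). Ccng1, a cyclin induced by p53, read 383, 399 and 499 in knockouts against 406, 338 and 202, overlapping at control 1. Its log2 change of 0.44 (95% interval -0.06 to 0.93) shrank to 0.18 without knockout control 3, the dimmest array of that line. In the overexpressors Ccng1 was at -0.08.

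Among the inhibitors and regulators, Cdkn2c had the lowest p of the 25 genes in the overexpressors. Cdkn2c, which binds Cdk4 and Cdk6 and keeps them from their cyclins, had the highest intensity of this role group. It read 643, 934 and 826 in overexpressors and 1360, 1262 and 1529 in controls. All 3 overexpressors lay below all 3 controls, and the highest overexpressor was still well under the lowest control. The log2 change was -0.77 (SE 0.18, 95% interval -1.16 to -0.38, unadjusted p = 0.000948, limma adjusted p = 0.311). Across 23 alternatives it stayed between -0.89 and -0.63, with limma adjusted p from 0.149 to 0.907.

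In the knockout line Cdkn2c read 1710, 1899 and 1456 against 1060, 1632 and 1175. Knockout 3 lay below control 2, so the groups overlapped, with the other knockouts above all controls. The log2 change was 0.40 (SE 0.18, 95% interval 0.0062 to 0.78, unadjusted p = 0.0470, limma adjusted p = 1). The 2 effects thus had opposite signs, and their difference was -1.17 (95% interval -1.72 to -0.62, unadjusted p = 0.000560), which did not pass the limma test over all probe sets (adjusted p = 0.167). Over 22 alternatives the lowest adjusted p among the 25 genes for that difference ran from 0.0674 to 0.527.

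Rb1, the retinoblastoma protein that restrains E2F, read 293, 333 and 413 in knockouts and 272, 275 and 223 in controls. All knockouts lay above all controls, with a log2 change of 0.38 (SE 0.14, 95% interval 0.07 to 0.69, unadjusted p = 0.0218, limma adjusted p = 1). A less bright Rb1 probe set, marked f for a gene family, gave 0.13 in the knockouts, with overlapping groups. In the overexpressors the brightest Rb1 probe set read 235, 327 and 327 against 276, 259 and 245, with overexpressor 1 lowest of all. Its log2 change there was 0.15. The less bright probe set gave 0.34 in the overexpressors, also with overlapping groups. The larger Rb1 change was thus in the knockouts on the brightest probe set and in the overexpressors on the other.

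**Figure D2:**
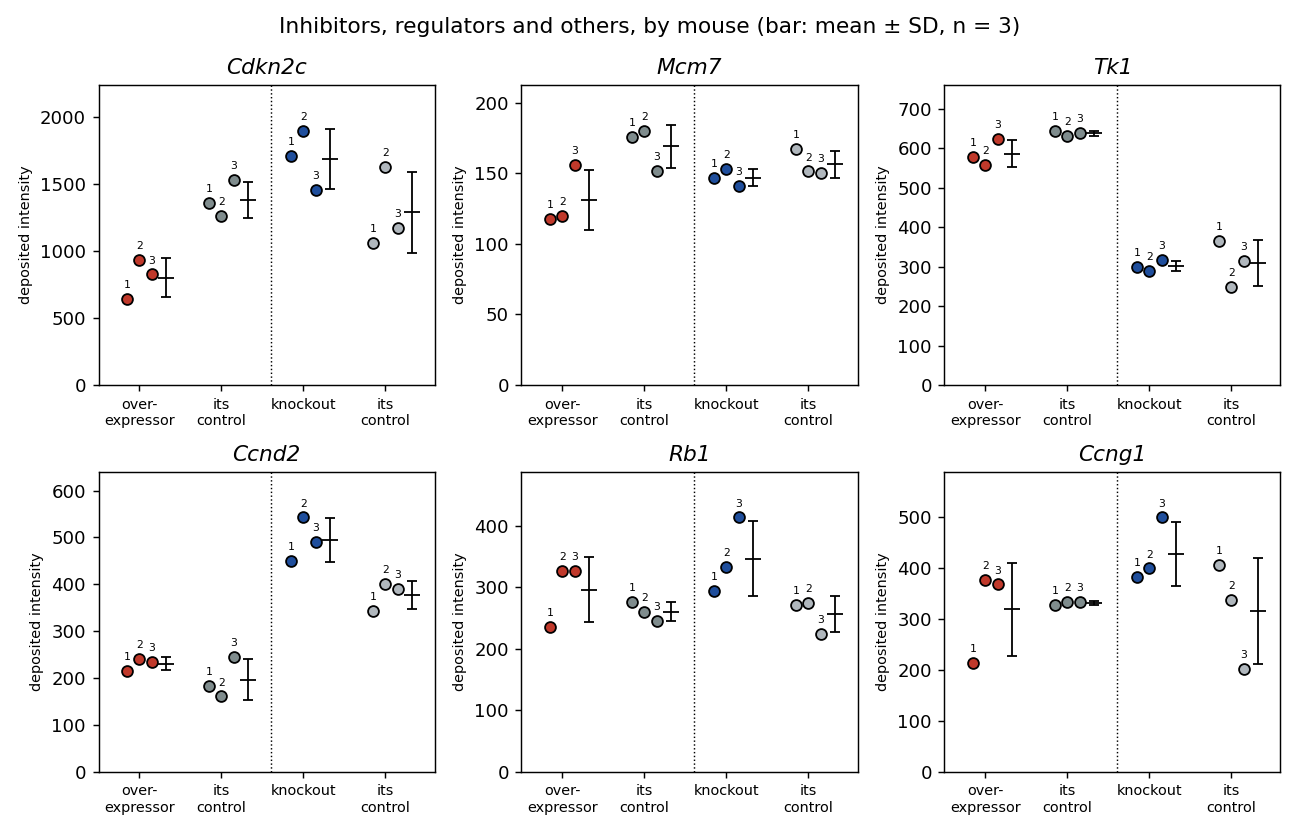
Deposited intensity of 6 cell cycle genes on each of 12 arrays, by group; circles are mice, numbered by replicate, and bars are mean ± SD (n = 3). Overexpressor circles for Cdkn2c lie at 643 to 934 under controls at 1262 to 1529, and knockout circles for Ccnd2 and Rb1 lie above those of their controls.

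The Cip/Kip inhibitors did not separate the groups. Cdkn1a, the inhibitor p21, read 430, 477 and 380 in overexpressors against 537, 314 and 422, and 457, 513 and 449 in knockouts against 569, 469 and 255. Its log2 changes were 0.04 and 0.19, and a less bright probe set gave 0.04 and 0.07. Cdkn1c, the inhibitor p57, read 362, 429 and 466 in overexpressors against 258, 406 and 301. It read 222, 205 and 338 in knockouts against 266, 237 and 433, with knockout control 3 highest of that line. Its log2 changes were 0.36 and -0.24, and their difference of 0.61 had an unadjusted p of 0.0789. Without knockout control 3 the knockout value was -0.0083. Cdkn1b, the inhibitor p27, was dim, between 57.2 and 100.25 on its brighter probe set.

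E2f1, the transcription factor released by Rb1, had log2 changes of 0.09 and 0.19 on a probe set marked f. Its other probe set was dim and gave differences of -0.23 and -0.09, opposite in sign. Mybl2, a Myb family factor that drives genes of mitosis, had log2 changes of -0.06 and -0.18. In the overexpressors its sign turned with array medians subtracted (0.0022) and with quantile normalization (0.02). A dim Mybl2 probe set gave differences of -0.07 and 0.04, opposite in sign in the knockouts.

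Of the mitotic genes 6 of 8 were dim, and single mice stood out in several of them. Mki67, the proliferation antigen that coats mitotic chromosomes, read 86.7, 85.2 and 138 in overexpressors and 336, 128 and 97.5 in controls. Control 1 was 2.43 times the next highest mouse, and the other controls lay among the overexpressors. Birc5, the survivin gene of the chromosomal passenger complex, read 37.2, 32.2 and 61.1 against 170, 60.03 and 49.6, with control 1 at 2.79 times the next. Cdc20, which activates the anaphase-promoting complex, read 116, 97.5 and 140 against 292, 153 and 111. Mad2l1, of the spindle checkpoint, read 75.2, 94.1 and 81.7 against 153, 95.4 and 82.2.

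Overexpressor control 1 was thus the highest mouse of its line for all of these, and for Top2a, at 28.5, 25.6 and 33.9 against 66.7, 38.4 and 21.9. The differences in log2 between group means were -0.55 for Mki67, -0.60 for Birc5, -0.45 for Cdc20, -0.26 for Mad2l1 and -0.22 for Top2a. Tested without the filter on dim probe sets, none of these passed (limma adjusted p = 0.951 for Mki67, Birc5, Cdc20 and Mad2l1 and 0.968 for Top2a). Without overexpressor control 1 they were -0.11 for Mki67, -0.20 for Birc5, -0.12 for Cdc20, -0.06 for Mad2l1 and -0.0080 for Top2a. That mouse therefore carried most of each difference. These genes were singled out by its high readings, so a smaller difference without it followed from that choice.

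In the knockout line each group held a mouse with higher readings. Mki67 read 58.2, 146 and 73.0 in knockouts and 125, 49.8 and 68.2 in controls, with knockout 2 and control 1 above the rest. Top2a followed the same order, at 22.3, 56.1 and 38.2 against 54.1, 22.3 and 24.4, with its low readings at or near the floor of 22.27. Cdk1, which passed the filter on the strength of its readings in the overexpressor line and averaged 120 and 112 here, in the range of dim genes, read 93.4, 154 and 113 against 140, 90.8 and 105, again highest in knockout 2 and control 1. The difference between group means was 0.13 for Mki67, whose readings spanned 2.94-fold between mice, and 0.11 for Top2a, whose lowest readings at the floor give no exact span. Birc5 read 47.4, 83.8 and 62.8 against 59.5, 40.3 and 41.4, with knockout 2 highest and a difference of 0.27.

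**Figure D3:**
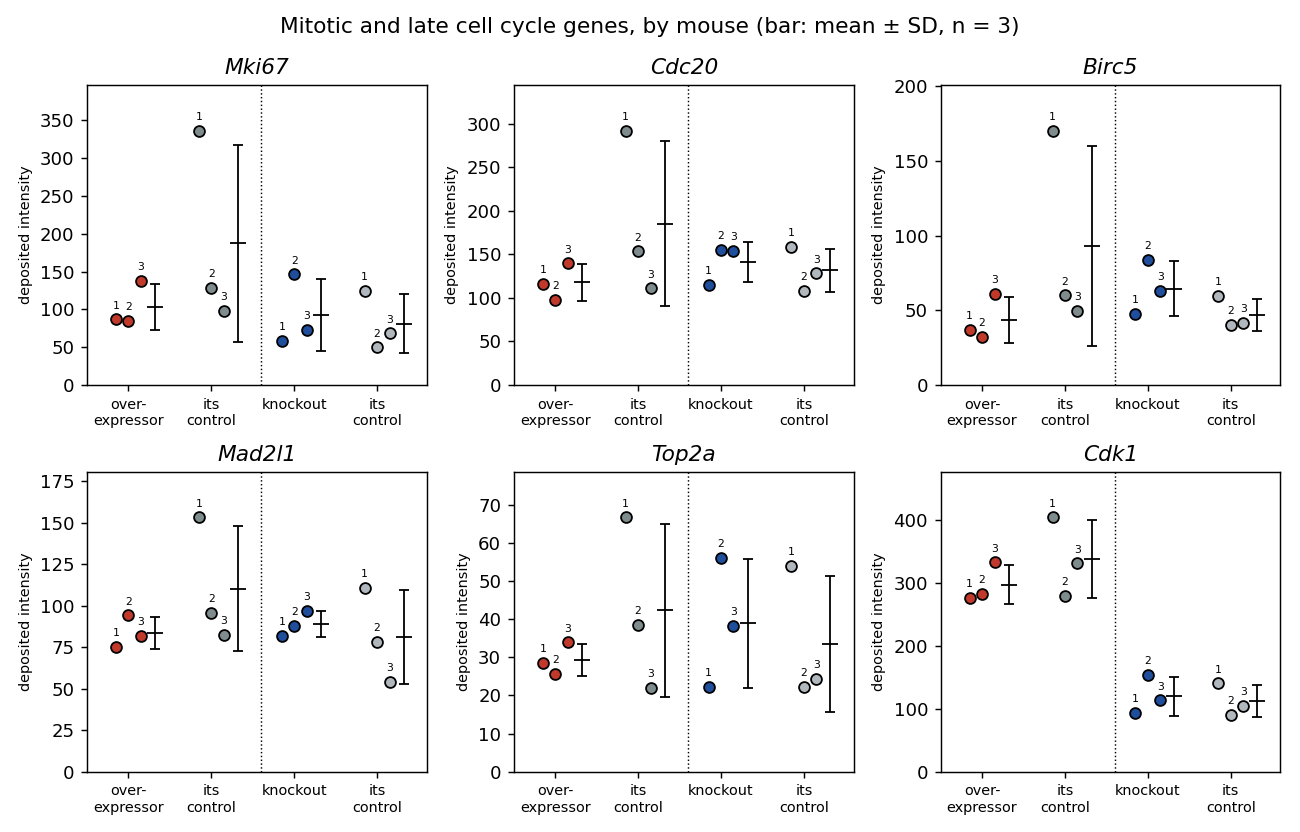
Deposited intensity of 6 genes of mitosis and the late cell cycle on each of 12 arrays, by group; circles are mice, numbered by replicate, and bars are mean ± SD (n = 3). Overexpressor control 1 is the highest circle of its line in all 6 panels, reaching 336 for Mki67. Mki67, Birc5, Cdc20, Mad2l1 and Top2a were singled out by their high readings on that array, so its place there follows from the choice. Knockout 2 and knockout control 1 are highest in the knockout line for Mki67, Top2a and Cdk1.

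Plk1, a kinase of mitotic entry, was also highest of its line on overexpressor control 1, at 745 against 706 for the next mouse on its brightest probe set, which is marked f. Its dimmer probe sets read 107 against 63.9 and 165 against 134 for the next mouse. On the brightest its log2 changes were -0.14 and 0.06, the latter at -0.0082 with quantile normalization. The dimmer Plk1 probe sets gave differences of -0.33 and -0.04 in the overexpressors and 0.21 and -0.08 in the knockouts. A dimmer Mki67 probe set gave differences of -0.22 and 0.0045. It was highest of its line on overexpressor control 1, at 183 against 117 for the next mouse. In the knockout line it read 94.8, 106 and 95.9 in knockouts against 97.2, 88.1 and 110. There knockout control 3 was highest, so the knockout line order of mice on the brightest Mki67 probe set was not repeated.

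Aurkb, the kinase of the chromosomal passenger complex, had the highest intensity of its role group. It read 1211, 928 and 830 in overexpressors against 886, 1036 and 894, and 1130, 902 and 878 in knockouts against 1055, 1444 and 1247. Knockouts 2 and 3 lay below all their controls while knockout 1 lay above control 1, and the log2 change was -0.35 (unadjusted p = 0.0531, limma adjusted p = 1). Its value in the overexpressors was 0.06. Overexpressor control 1, highest for Birc5 of the same complex, was the second lowest array of its line for Aurkb.

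Aurka, the kinase of the spindle poles, was dim at 97.9, 105 and 99.4 in knockouts against 85.1, 78.2 and 95.9, with all knockouts above all controls and a difference of 0.16. Bub1, a spindle checkpoint kinase, was dim at 73.6 to 148 on its brightest probe set, where overexpressor control 2 was highest of its line. The brightest gave differences of -0.06 in the overexpressors and -0.23 in the knockouts. A dimmer Bub1 probe set gave -0.13 and 0.04, opposite in sign in the knockouts. It was highest on overexpressor control 1, at 98.9 against 83.2 for the next mouse. Another Bub1 probe set was within 2% of the floor on all 12 arrays.

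The 5 genes for which overexpressor control 1 read over 1.5 times the next mouse on the brightest probe set were chosen after their values were seen, and their promoters are described because these genes read high together. Textbook elements of cell cycle promoters are the CCAAT box, the cell cycle homology region (TTTGAA or TTCGAA) and E2F sites (searched as TTTCCCGC, TTTGGCGC, TTTCGCGC and TTTGCCGC), all sought on both strands in the 250 bases before the start site in RefSeq's GRCm38.p6 annotation. The promoters of Mki67 (chr7:135716380-135716629), Top2a (chr11:99024190-99024439) and Cdc20 (chr4:118437344-118437593), all on the minus strand, are shown 5′ to 3′ with matches in capitals; neighbouring matches may adjoin, and a CCAAT box on the other strand reads ATTGG, a homology region TTCAAA.
Mki67: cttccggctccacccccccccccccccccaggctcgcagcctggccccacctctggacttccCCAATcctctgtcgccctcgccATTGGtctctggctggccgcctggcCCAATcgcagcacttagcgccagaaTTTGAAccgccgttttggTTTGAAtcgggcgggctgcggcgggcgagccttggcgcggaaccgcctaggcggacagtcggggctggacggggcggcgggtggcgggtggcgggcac
Top2a: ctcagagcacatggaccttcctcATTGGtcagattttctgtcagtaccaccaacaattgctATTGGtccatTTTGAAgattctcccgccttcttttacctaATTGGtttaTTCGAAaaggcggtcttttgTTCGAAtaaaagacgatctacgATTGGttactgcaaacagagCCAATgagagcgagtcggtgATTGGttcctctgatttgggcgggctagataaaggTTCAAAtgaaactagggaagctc
Cdc20: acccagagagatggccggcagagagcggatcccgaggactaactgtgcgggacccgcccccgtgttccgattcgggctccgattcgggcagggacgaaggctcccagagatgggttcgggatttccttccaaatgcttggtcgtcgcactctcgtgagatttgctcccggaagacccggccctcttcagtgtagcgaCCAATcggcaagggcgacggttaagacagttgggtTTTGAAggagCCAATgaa
Mki67 held 3 CCAAT boxes and 2 homology regions, Top2a 6 and 4, and Cdc20 2 and 1. The 250-base windows of Birc5 and Mad2l1 held no match to any of these letters, and none of the 5 held an E2F match. Of all 32851 promoters in the table, 33.8% held a CCAAT box, 17.1% a homology region and 1.86% an E2F match. Promoters were listed for 33 of the 40 genes, 39 in all, and of these 59.0% held a CCAAT box, 17.9% a homology region and 17.9% an E2F match. The E2F matches were at Mcm5, Mcm6, Mcm7, Cdc6, Pola1, Cdk2 and Cdk1, mostly genes of replication. A match is a run of letters and not a shown binding site.

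Overexpressor control 1 also stood apart more widely. Of the 40 genes, 16 (40%) read highest of the line on that array, against 33.7% of all 12422 probe sets. Among the 15 dim genes it was 8 (53.3%), and among the 25 tested genes also 8 (32%). The shares over the 40 genes and over the tested genes thus lay near that of all probe sets. Markers of some other cell types were also high there. It was highest for 8 of 9 macrophage markers, whose sum was 6833 there against 3672 to 4820 on the other controls and 3860 to 4331 on overexpressors. It was highest for 8 of 8 fibroblast and preadipocyte markers, at a sum of 28819 against 17219 to 25708 on the other arrays of the line, and for 6 of 6 mesothelial markers, at 5448 against 2614 to 3284. Smooth muscle and pericyte markers were highest there in 7 of 8, at 16067 against 8735 to 14180. Of 8 endothelial markers 4 were highest there, of 8 ovary and uterus markers 3, and of 7 T and NK cell markers 1. Of 8 adipocyte markers, of 8 B cell markers and of 5 erythroid markers, 0 were highest there. No marker of the macrophage, fibroblast, smooth muscle or mesothelial lists was at the floor on any array, and the part of these cells in the mitotic readings was not tested. In whole tissue, fewer cells of a type and less RNA per cell cannot be told apart.

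In the knockout line, knockout 2 and knockout control 1 were each highest for 12 of the 40 genes, against 13.9% and 16.0% of all probe sets. Knockout control 1 was highest for 6 of 8 fibroblast and 6 of 8 smooth muscle markers, whereas knockout 2 was highest for 0 and 1 of them. Each was highest for 1 of 9 macrophage markers.

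**Figure D4:**
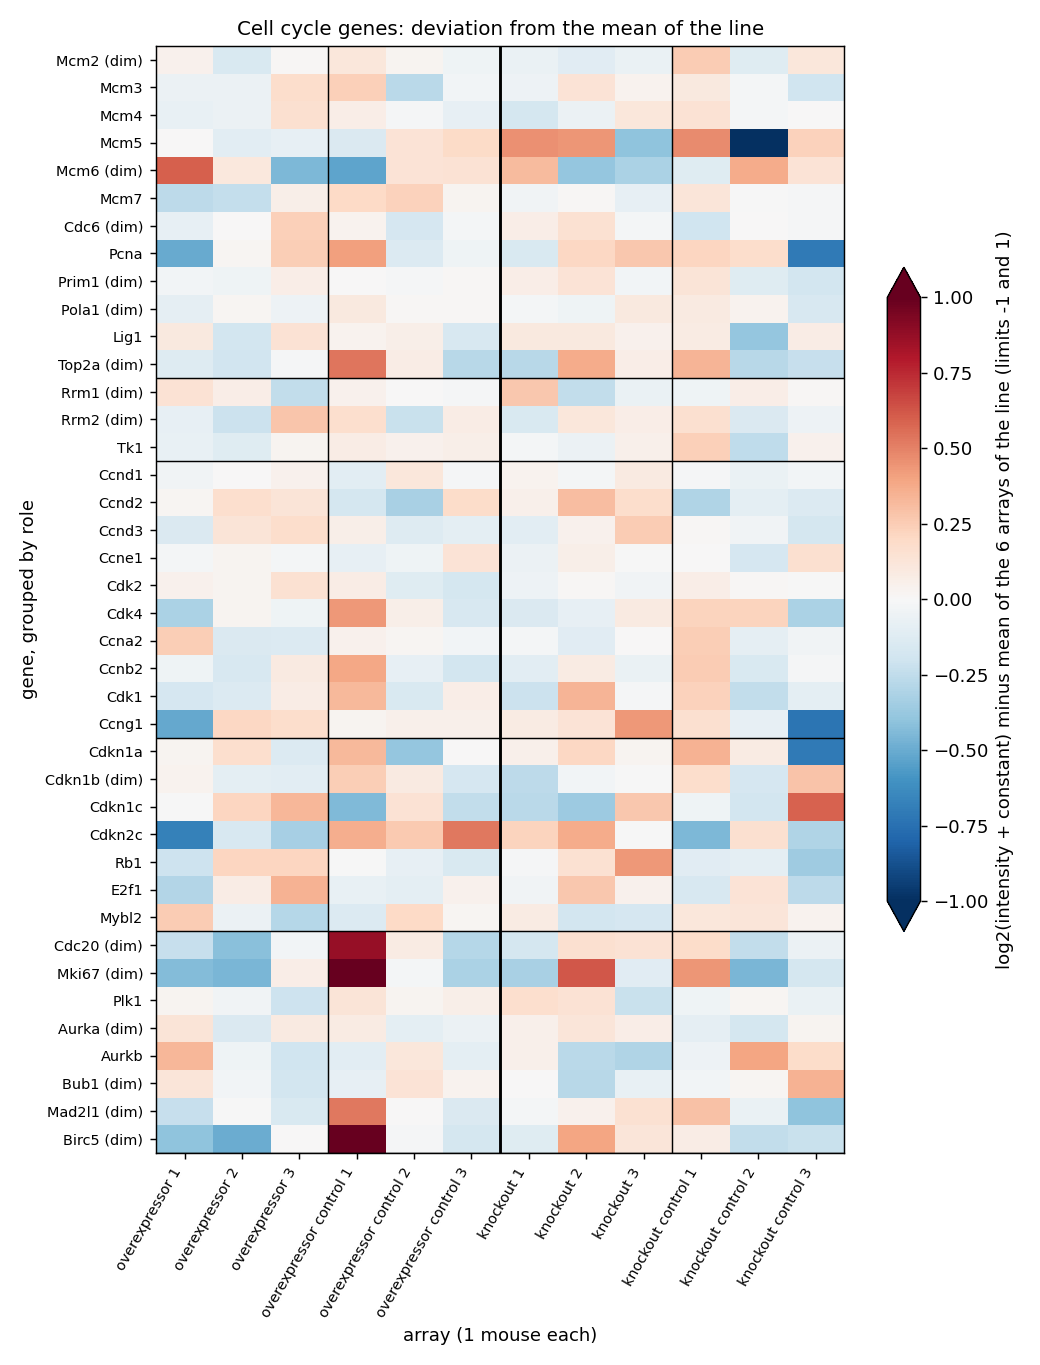
Deviation of log2(intensity + 36.92) from the mean of the 6 arrays of the line, for the 40 cell cycle genes (rows, by role) on 12 arrays (columns); colours saturate at -1 and 1, and dim genes are marked. The darkest red cells are Mki67 (1.16) and Birc5 (1.08) on overexpressor control 1, and the darkest blue cell is Mcm5 (-1.20) on knockout control 2.

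Other genes of the cell cycle, on lists apart from the 43, were read in the same way, with 52 of 132 tested. None was called in either line by limma, against 0.0805% of all probe sets in the overexpressors and 0.121% in the knockouts. An unadjusted limma p under 0.05 was seen for 4 genes in the overexpressors, against 4.76% of all probe sets. In the knockouts it was seen for 1 gene, against 3.98% of all. Of the other mitotic genes, 12 of 12 tested lay lower in the overexpressors, with a median of -0.17. Over all probe sets 70.3% lay lower, with a median of -0.07. Once array medians were subtracted or quantile normalization was used, 4 of the 12 were higher. Likewise 4 of 12 were higher, with a median of -0.03, without overexpressor control 1. That array was highest of its line for 28 of the 37 other mitotic genes present (75.7%), against 33.7% of all 12422 probe sets, as it was for Mki67 and Birc5. The median was also reduced, to -0.04, without overexpressor 1.

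Racgap1, a GTPase-activating protein of cytokinesis, read 375, 400 and 257 in overexpressors against 533, 524 and 496, with all overexpressors below all controls (log2 change -0.56, unadjusted p = 0.00309, limma adjusted p = 0.509). Ccng2, a cyclin-like inhibitor of the cycle, averaged 334 ± 12.6 against 491 ± 46.5 (n = 3; log2 change -0.50, limma adjusted p = 0.708). Btg1, an antiproliferative gene, averaged 549 ± 29.2 against 877 ± 207 (n = 3; -0.62, limma adjusted p = 0.866). These 3 had the smallest p of the wider lists in the overexpressors, and each had groups that did not overlap. Of the 52 tested genes of those lists, 2 lay higher and 5 lower without overlap, against 2.29% and 6.51% of all probe sets.

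In the knockouts the other replication genes lay higher in 13 of 14 tested (median 0.16 against 0.04 over all probe sets), also under both other scalings, with a median of 0.03 and 10 of 14 higher without knockout control 3. Over all 31 of them on the array, 21 were higher, 8 lower and the others at 0, with a median of 0.06. Orc4, of the origin recognition complex, averaged 192 ± 12.9 against 155 ± 15.4 (n = 3; log2 change 0.26, unadjusted p = 0.0307, limma adjusted p = 1). The next smallest p-values were those of the p53 targets Gadd45a (-0.31) and Phlda3 (0.39), with unadjusted p of 0.0599 and 0.0942. The p53 arrest genes as a list had medians of -0.08 in the overexpressors and 0.03 in the knockouts, and the other G1 and S regulators medians of -0.05 and 0.02.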

How the data were processed

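RNA of perigonadal fat was profiled on 12 Affymetrix arrays, 1 mouse each, and the 4 groups of 3 were read from the titles. The deposited intensities, 1 per probe set, are linear; how the authors summarised, scaled and background-treated them is not given in the sources used here. Because the smallest value differed between lines, levels were compared within a line only. The analysis used log2(intensity + 36.92); 36.92 is the table's 10th percentile. The dimmest 40% of 12422 probe sets by mean of these log2 values over the 12 arrays (4968, called dim) were set aside, leaving 7454. A limma 3.58.1 model (R 4.3.3) gave each group a mean over the 12 arrays, with eBayes moderation and a trend (8 residual, 4.32 prior degrees of freedom). Benjamini-Hochberg adjustment ran over all 7454, at a threshold of 0.05. The code was tested on simulated data. Nothing says that the mice are from separate litters, so p-values measure the spread between these mice. At 3 against 3, exact permutation reaches no two-sided p under 0.1, so it was not run.

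Gene names came from the platform annotation, updated through gene identifiers, and promoters from RefSeq (GRCm38.p6). The genes to name were those with an unadjusted p under 0.05 or non-overlapping groups, plus the brightest of each role group. Other genes given by array, such as the dim mitotic ones, and the promoter motifs were chosen after their values were seen. The members and lists were chosen with earlier results of these data known. Alternatives covered scaling, the constant, the filter, each line alone, the replicate block, each array left out and the choice of probe set. Same-numbered mice did not deviate together, and they were not treated as pairs. With 3 mice in a group this cannot exclude pairing, so whether the numbers pair mice is not known. Plots were made in Python 3.11.15 (matplotlib 3.10.9).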

Additional observations from a re-analysis of the deposited data

How the results depend on the processing

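No cell cycle gene was called under any of the 23 alternatives to either comparison or the 22 to their difference, with 1 to 4 genes at an unadjusted limma p under 0.05 in the overexpressors and 1 to 5 in the knockouts. Calls over all probe sets ran from 1 to 21 in the overexpressors (6 as reported), 0 to 11 in the knockouts (9) and 1 to 14 for the difference (12). With the replicate number as a block, 0 genes of the 25 were called in either comparison, and calls over all probe sets were 5, 0 and 1. Same-numbered mice had correlations of -0.0939 to 0.0195 in the overexpressor line and -0.362 to -0.0362 in the knockout line. No mouse correlated best with its own number. The overexpressor median of -0.01 was 0.0512 with array medians subtracted and 0.0689 with quantile normalization, and -0.0363 to 0.0129 with 1 array left out. The knockout median of 0.07 was -0.00058 on probe sets without a suffix letter, an alternative chosen after seeing the data, and -0.00222 to 0.0943 with 1 array left out.

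Cdkn2c, Ccnd2, Rb1 and Mcm7 kept their sign in both comparisons under every alternative that tested them. So did Ccnd3, Cdk2, Cdk4 and Cdkn1c, which had no unadjusted limma p under 0.05. Signs turned for 14 genes in the overexpressors and 10 in the knockouts, and the cause was not tested. With array medians subtracted, overexpressor values turned for Ccne1 (0.0512), Ccna2 (0.0324) and Mybl2 (0.00217). With quantile normalization they turned for Mcm5 (0.00197), Ccne1 (0.0924), Ccna2 (0.0485), Ccnb2 (0.0129) and Mybl2 (0.017), and in the knockouts for Plk1 (-0.0082). Knockout values also turned for Ccne1 with a constant of 1 (0.0015) and for Mcm5 on its other probe set (-0.13). With 1 array left out, overexpressor values ranged from -0.0834 to 0.168 for Mcm3, -0.0559 to 0.0631 for Mcm4, -0.318 to 0.0571 for Pcna, -0.031 to 0.141 for Lig1, -0.0477 to 0.0638 for Ccnd1, -0.0511 to 0.0617 for Ccne1, -0.155 to 0.0398 for Ccna2, -0.189 to 0.097 for Ccnb2, -0.21 to 0.151 for Ccng1, -0.145 to 0.21 for Cdkn1a, -0.0663 to 0.252 for E2f1, -0.198 to 0.0712 for Mybl2 and -0.0891 to 0.174 for Aurkb. Knockout values ranged from -0.00174 to 0.146 for Mcm3, -0.185 to 0.652 for Mcm5, -0.086 to 0.375 for Pcna, -0.152 to 0.0943 for Tk1, -0.083 to 0.0784 for Ccne1, -0.149 to 0.0189 for Ccna2, -0.151 to 0.0506 for Ccnb2, -0.0757 to 0.207 for Cdk1, -0.122 to 0.405 for Cdkn1a and -0.0102 to 0.186 for Plk1. Signal also sets a limit, since 15 of the 40 genes, 6 of the 8 mitotic ones among them, were too dim for the test.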
